A study of Mus musculus with 47 samples.

Results

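The 10 genes described here belong to the integrated stress response that runs through the transcription factor ATF4: Atf4 itself, the transcription factors Atf5 and Ddit3, the feedback and stress outputs Trib3, Chac1 and Sesn2, the amino acid enzymes Asns, Psat1 and Phgdh, and the transporter Slc7a11. They were chosen by name from the 57180 genes measured, and all 10 were found by symbol. Messenger RNA was sequenced from whole retinas of C57BL/6 mice, an inbred laboratory strain, at 6 weeks of age (young, 24 libraries) and at 20 months (aged, 23 libraries). Mice lived in 12 h of light and 12 h of darkness, and right eyes were collected at 4 h steps over 6 times, given as hours after lights on (zeitgeber time, ZT). The first 3 (ZT2, ZT6, ZT10) were in the light and the last 3 (ZT14, ZT18, ZT22) in darkness. Every age and time had 4 libraries, except aged ZT18 with 3, and the labels name no genetic change or treatment. Levels are RPKM, reads per kilobase of exon scaled to library size. The comparisons asked whether these genes differed with age, whether young or aged retinas showed 24 h cycles of them, and whether age altered the cycles.

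In the integrated stress response, kinases that sense unfolded protein, missing amino acids, viral RNA or lack of heme phosphorylate the initiation factor eIF2. Most translation then falls, while the Atf4 and Atf5 messages, whose upstream reading frames hold back their translation in resting cells, are translated more. ATF4 protein binds DNA as a dimer with C/EBP and related factors and turns on genes for amino acid synthesis and import, redox balance and, under lasting stress, cell death. The pathway is therefore controlled in large part at translation and phosphorylation, which messenger RNA levels do not show. In the retina it is best known from models of photoreceptor degeneration and of optic nerve injury, where ganglion cells induce Ddit3.

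ATF4 dimers are known to bind the composite C/EBP-ATF element TGATGNAA, so the promoters of the 10 genes were searched for it. The windows were RefSeq promoters on GRCm38.p6, from 250 bases before to 50 bases after each start, and both strands were read. A match was found in 4 of the 10, and in 4.51% of 27025 genes with a promoter in the table. The palindromes TGACGTCA and CACGTG had no match in these 10 genes, against 2.03% and 8.09% of all genes. The 4 promoters are shown 5′ to 3′ on the gene's strand with the matches in capitals. They lie at chr2:119350992-119351291 on the plus strand for Chac1, and on the minus strand at chr6:7693160-7693459 for Asns, chr2:152344011-152344310 for Trib3 and chr3:50443564-50443863 for Slc7a11.
Chac1: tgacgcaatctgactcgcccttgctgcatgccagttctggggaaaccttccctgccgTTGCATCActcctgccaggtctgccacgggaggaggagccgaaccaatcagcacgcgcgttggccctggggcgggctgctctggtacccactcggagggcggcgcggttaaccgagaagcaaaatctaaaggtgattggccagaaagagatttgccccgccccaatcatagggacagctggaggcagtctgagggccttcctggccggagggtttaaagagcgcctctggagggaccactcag
Asns: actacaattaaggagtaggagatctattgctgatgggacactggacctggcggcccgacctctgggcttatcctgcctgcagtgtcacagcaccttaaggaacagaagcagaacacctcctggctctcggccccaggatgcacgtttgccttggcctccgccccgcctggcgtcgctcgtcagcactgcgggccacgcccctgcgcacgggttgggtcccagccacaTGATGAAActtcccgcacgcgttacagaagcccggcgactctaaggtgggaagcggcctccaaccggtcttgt
Trib3: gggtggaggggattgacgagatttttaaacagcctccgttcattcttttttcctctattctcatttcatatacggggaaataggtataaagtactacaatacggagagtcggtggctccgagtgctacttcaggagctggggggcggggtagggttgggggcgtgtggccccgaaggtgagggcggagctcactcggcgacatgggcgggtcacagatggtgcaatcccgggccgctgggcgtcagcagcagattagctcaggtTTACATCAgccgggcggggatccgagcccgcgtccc
Slc7a11: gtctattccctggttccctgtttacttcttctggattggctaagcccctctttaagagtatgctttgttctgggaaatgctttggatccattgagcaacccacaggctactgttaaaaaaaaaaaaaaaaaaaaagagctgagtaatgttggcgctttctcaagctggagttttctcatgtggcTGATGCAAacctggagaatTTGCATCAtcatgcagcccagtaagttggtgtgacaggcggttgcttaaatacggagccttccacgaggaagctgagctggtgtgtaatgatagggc

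Counted from the start, the match of Asns began at base -23 and that of Chac1, on the other strand, at base -193. Slc7a11 held 2 matches on opposite strands, at bases -66 and -47, and the match of Trib3 began at base 15. Atf4, Atf5, Ddit3, Sesn2, Psat1 and Phgdh had none in these windows. A match is a string of letters and was not tested as a binding site. Of 48 other genes of the pathway with a promoter in the table, 10 held the element, among them Atf3, Got1, Nupr1 and Vldlr.

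The recovered totals of the libraries were between 32.0 and 55.5 M reads. Defining genes of Müller glia (Glul, 49.8 to 611 RPKM) and ganglion cells (Rbpms, 0.604 to 13.99 RPKM) were found in all libraries, as the label retina would have it. Genes of pigment epithelium, blood and lens were also present at levels that varied widely, with summed lens markers from 0.6002 to 1409 RPKM. Young ZT10 replicate 4 and aged ZT6 replicate 3 stood apart from the other libraries: 34.1% and 19% of 15321 tested genes differed more than 2-fold from the median of their group, against a median of 1.16% and at most 9.88% in the other 45. Counts of calls are therefore given with all libraries and without these 2, and other values name the set they come from.

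Atf4 was by far the most abundant of the 10 genes in every library, with a median of 84.4 RPKM over 47 libraries. Ddit3, which encodes the pro-apoptotic factor CHOP, followed at 18.1 RPKM. Atf5, a factor close to ATF4, and Asns, which makes asparagine, were next at 12.0 and 11.7 RPKM and did not differ beyond their spread, since Atf5 was the higher in 29 of 47 libraries. Psat1, the second enzyme of serine synthesis, had a median of 7.57 RPKM and Sesn2, an inhibitor of mTORC1 in amino acid and oxidative stress, 5.63 RPKM. Trib3, a pseudokinase that restrains ATF4, was at 3.75 RPKM and Phgdh, the first enzyme of serine synthesis, at 1.79 RPKM. Chac1, which degrades glutathione, reached 0.962 RPKM from a median of 59 reads. Slc7a11, the cystine importer, was lowest at 0.195 RPKM from a median of 101 reads on a long transcript. It reached 0.5 RPKM in 1 library only, so 9 of the 10 genes passed the filter on low values and were tested, and Slc7a11 is described by its levels.

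**Figure D1:**
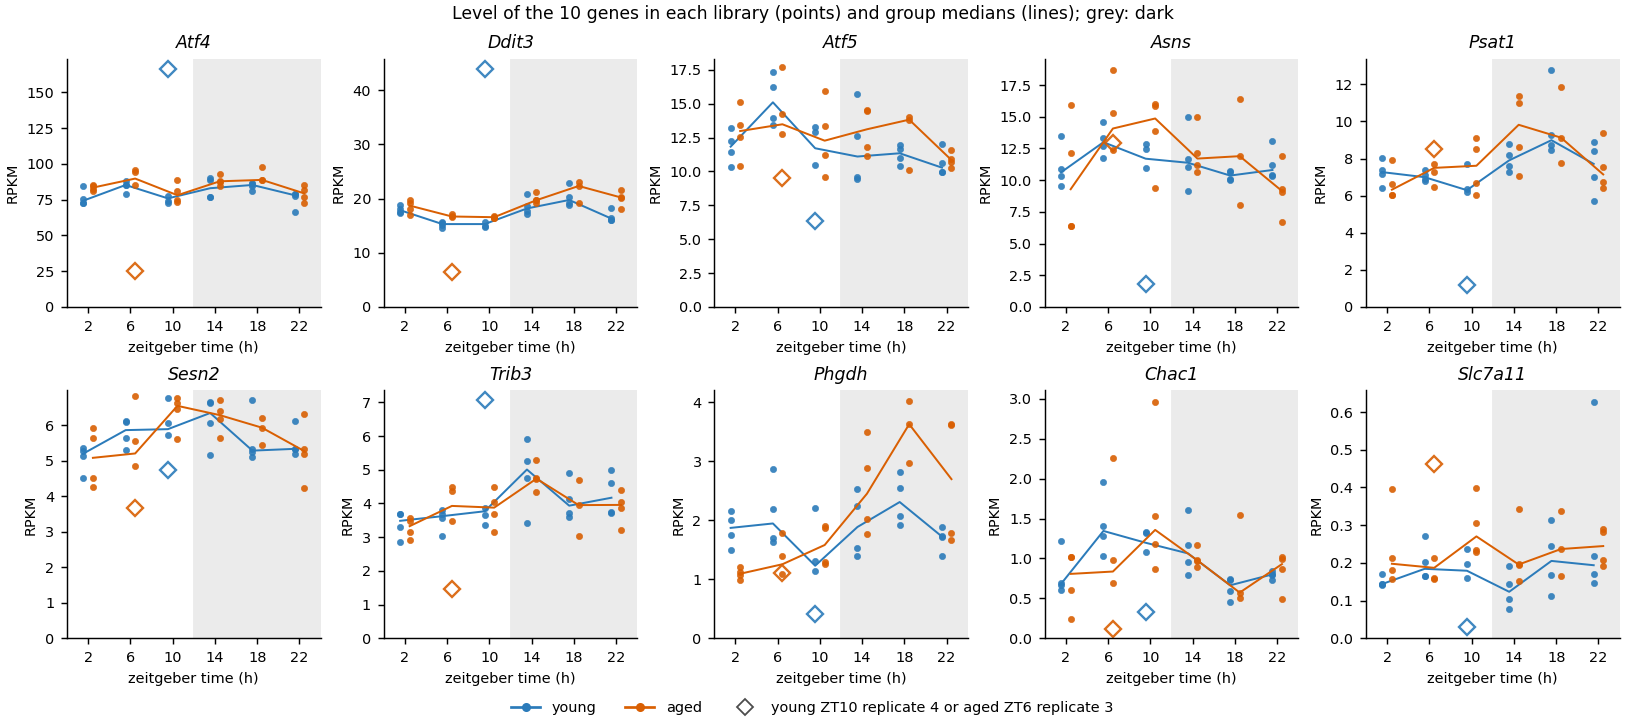
Level of each gene (RPKM, y axis from 0) against zeitgeber time (h), 1 point per library, young in blue and aged in orange, lines through group medians, dark hours in grey. The open diamonds, young ZT10 replicate 4 and aged ZT6 replicate 3, lie far from their groups for Atf4 (166 and 25.0 RPKM) and Ddit3 (43.9 and 6.53 RPKM).

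The 10 genes did not move as one in the libraries that stood apart. In young ZT10 replicate 4, Atf4 was at 166 RPKM against a median of 74.0 RPKM in the other 3 libraries of its group. Ddit3 was at 43.9 against 14.9 RPKM and Trib3 at 7.07 against 3.67 RPKM. In the same library the amino acid enzymes were low: Asns was at 1.80 against 12.4 RPKM and Psat1 at 1.18 against 6.37 RPKM. Chac1, Atf5 and Phgdh were also below their group, so 3 genes were above it, and Sesn2 was at 4.75 against 6.06 RPKM. In this library 5 of the 9 tested genes lay over 2-fold away, where 34.1% of all tested genes did. Marker lists moved there too: summed markers of Müller glia were at 269 RPKM against 1114 to 1244 RPKM in the other 3, ganglion cell markers at 63.3 against 364 to 500.5 RPKM, and blood genes at 281 against 33.6 to 60.1 RPKM. The deviation of all genes fell with exon length, with a Spearman's rho of -0.346 across genes, which are not independent replicates. Aged ZT6 replicate 4, which did not stand apart, had a rho of -0.292. What part the markers and exon length had in the levels of the 10 genes was not tested.

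Aged ZT6 replicate 3 showed another combination. Atf4 was at 25.0 RPKM against a median of 94.3 RPKM in its group, Ddit3 at 6.53 against 16.8 RPKM, Trib3 at 1.45 against 4.37 RPKM and Chac1 at 0.115 against 0.976 RPKM. The enzymes stayed near their group, with Asns at 12.9 against 15.3 RPKM, Psat1 at 8.497 against 7.30 RPKM and Phgdh at 1.11 against 1.40 RPKM. Atf4, Ddit3, Trib3 and Chac1 were thus the 4 of 9 genes over 2-fold away, where 19% of all tested genes were. Deviations rose with exon length in this library, with a Spearman's rho of 0.318 across genes. Young ZT22 replicate 2, which did not stand apart, had the same rho of 0.318. In aged ZT6 replicate 3, summed microglia markers were at 7.39 RPKM against 21.3 to 21.6 RPKM, and Müller glia markers at 803 against 1099 to 1243 RPKM. Whether these bear on the low Atf4 group was not tested.

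**Figure D2:**
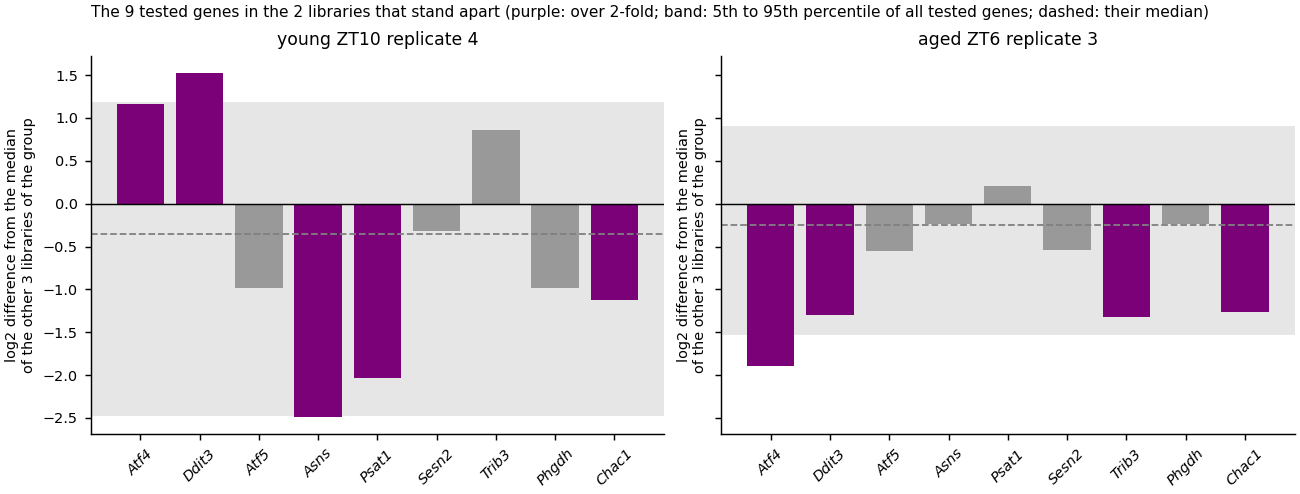
Difference of each tested gene (log2, bars) in the 2 libraries from the median of the other 3 libraries of the same age and time, with the 5th to 95th percentile (band) and median (dashed) of 15321 genes. Atf4, Ddit3 and Trib3 point up in the young library and down in the aged one, whereas Asns and Psat1 are far down in the young library only.

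With all libraries, none of the 9 tested genes passed the test for a difference with age over all times. The test was limma on log2(RPKM + 0.5) with Benjamini-Hochberg adjustment over all tested genes, called at an adjusted p under 0.05, and it called 4.24% of them. None of the 9 had an unadjusted p under 0.05, and limma's voom on recovered reads called 0 as well. Without the 2 libraries, Ddit3 and Atf4 were higher in aged retinas, in a test that then called 16.5% of all genes, 7.24% as higher. Ddit3 was 0.12 ± 0.03 higher on the log2 scale (SE, a 1.09-fold difference, adjusted p = 0.000897) and Atf4 0.10 ± 0.03 higher (a 1.07-fold difference, adjusted p = 0.00561). With all libraries the Ddit3 difference was 0.01 ± 0.09 (adjusted p = 0.986). These 2 were also the genes that voom called without the libraries, with an Atf4 difference of 0.12 and an adjusted p of 0.0211. Removing any 1 library of the 47 gave 0 calls. With all libraries but weights that lower the variable ones, Ddit3 was called (adjusted p = 0.00244 by limma) and Atf4 was not (adjusted p = 0.0557).

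Ddit3 levels were tight within groups apart from the 2 libraries. At ZT2, Ddit3 was at 17.3, 18.9, 17.6 and 18.1 RPKM in young and at 17.01, 19.7, 18.1 and 19.3 RPKM in aged retinas. The groups overlapped at this time. At ZT6, Ddit3 was at 15.2, 15.7, 15.4 and 14.7 RPKM in young and at 16.8, 17.1, 6.53 and 16.6 RPKM in aged retinas. At ZT10, Ddit3 was at 15.6, 14.7, 14.9 and 43.9 RPKM in young and at 16.5, 16.4, 16.7 and 16.6 RPKM in aged retinas. Leaving out the 2 outlying values, all aged libraries lay above all young ones at both of these times, with 3 libraries in the smaller group. The share of all tested genes that separated so is not given here. At ZT14, Ddit3 was at 17.8, 17.1, 20.8 and 18.6 RPKM in young and at 19.7, 19.7, 21.1 and 19.1 RPKM in aged retinas. At ZT18, Ddit3 was at 19.2, 22.9, 18.8 and 20.3 RPKM in young and at 22.3, 22.98 and 19.2 RPKM in aged retinas. At ZT22, Ddit3 was at 16.1, 16.1, 16.5 and 18.2 RPKM in young and at 20.2, 18.1, 20.2 and 21.7 RPKM in aged retinas. Ddit3 was thus lowest at ZT6 and ZT10 and highest at ZT18 in both ages once the 2 libraries were set aside. Its aged mean was the higher at 6 of 6 times, a count likewise given without the share of all tested genes. At single times, Ddit3 at ZT22 was the only call among the 9 genes without the 2 libraries (0.25 ± 0.06 higher in aged on the log2 scale, adjusted p = 0.0356 by limma), where 0.757% of all genes were called. At the other times of that set, in the order of the day from ZT2, the share was 0.751%, 1.38%, 0.587%, 0.914% and 0.822%, and 5 of the 54 tests had an unadjusted p under 0.05. The ZT22 call was lost by voom and with median-ratio scaling in the same libraries, each of which called 0 of 54. With all libraries it was 0.25 ± 0.21 with an adjusted p of 0.926, and no gene of the 9 was called at any time, while 0.144%, 3.12%, 0.496%, 0.248%, 0.255% and 0.17% of all genes were, in the order from ZT2 to ZT22. Of those 54 tests, 6 had an unadjusted p under 0.05, and voom called 0 of 54.

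The course of Atf4 over the day was flatter. At ZT2, Atf4 was at 72.8, 72.9, 75.7 and 84.5 RPKM in young and at 81.3, 82.3, 84.5 and 85.3 RPKM in aged retinas. At ZT6, Atf4 was at 84.9, 88.2, 85.5 and 78.8 RPKM in young and at 85.1, 95.9, 25.02 and 94.3 RPKM in aged retinas. At ZT10, Atf4 was at 73.99, 72.5, 77.7 and 166 RPKM in young and at 74.8, 73.7, 88.4 and 81.3 RPKM in aged retinas. Apart from the values 166 and 25.0, these lie within a narrow band. At ZT14, Atf4 was at 77.1, 77.1, 88.8 and 90.2 RPKM in young and at 87.5, 84.5, 88.1 and 92.9 RPKM in aged retinas. At ZT18, Atf4 was at 86.7, 86.05, 84.4 and 81.03 RPKM in young and at 98.03, 88.5 and 88.8 RPKM in aged retinas. At ZT22, Atf4 was at 66.1, 78.9, 78.8 and 77.2 RPKM in young and at 76.9, 72.8, 81.7 and 84.9 RPKM in aged retinas. Setting the 2 libraries aside, Atf4 had a mean of 79.99 ± 6.27 RPKM in the 23 young libraries and of 85.05 ± 6.84 RPKM in the 22 aged ones (SD). The aged mean was the higher at 6 of 6 times, again without the share of all tested genes. With all libraries the means were 83.6 ± 18.6 RPKM for the 24 young and 82.4 ± 14.2 RPKM for the 23 aged libraries (SD), with the aged mean higher at 4 of 6 times. The difference over all times was then -0.03 ± 0.09 on the log2 scale (adjusted p = 0.944 by limma), and its direction was already turned, to 0.05, without aged ZT6 replicate 3 alone.

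The other 7 tested genes did not pass the age test in either set of libraries. In the 45 other libraries, the 95% intervals of the age difference on the log2 scale were -0.04 to 0.18 for Atf5, -0.10 to 0.11 for Trib3 and -0.08 to 0.09 for Sesn2. They were -0.08 to 0.16 for Psat1, -0.17 to 0.18 for Asns, -0.14 to 0.27 for Phgdh and -0.19 to 0.21 for Chac1. In these libraries the stress outputs Trib3 and Sesn2 were thus bounded to small differences, and Psat1 and Atf5 slightly less so. Asns, Phgdh and Chac1, with its low counts, had wider intervals. With all libraries the interval was -0.23 to 0.07 for Trib3 and -0.10 to 0.09 for Sesn2. Over the 9 genes the median difference was 0.01 with all libraries and 0.04 without the 2, beside -0.02 and -0.03 over all tested genes. Slc7a11 ran from 0.0298 to 0.627 RPKM with a median of 0.166 in young and from 0.153 to 0.462 RPKM with a median of 0.214 in aged, and the ages overlapped at all 6 times.

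**Figure D3:**
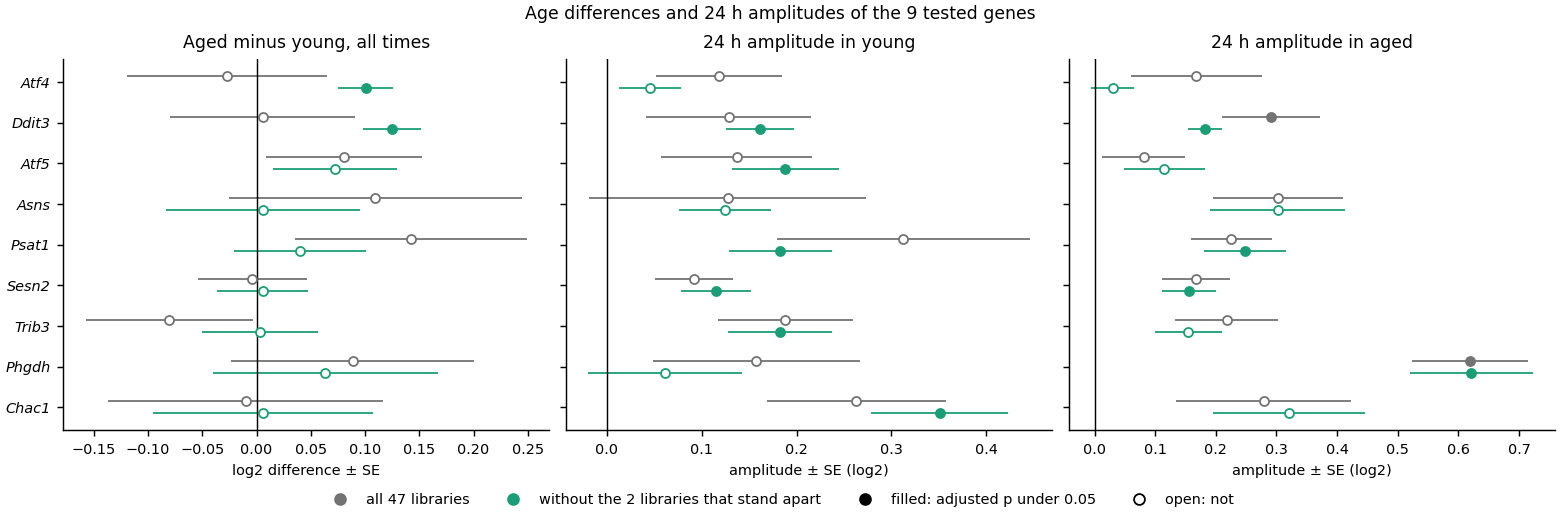
Age difference (log2, left) and 24 h amplitude (log2, middle and right) of the 9 tested genes, each with its SE, from all 47 libraries (grey) and without the 2 that stand apart (green), filled where the adjusted p was under 0.05. Without the 2 libraries, Atf4 and Ddit3 lie above 0 for age, and Phgdh in aged has the same amplitude of 0.62 in both sets.

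Phgdh, which commits a glycolytic intermediate to serine, had the widest daily cycle, in aged retinas. A cosine and sine of 24 h were fitted to each age, and amplitude is the distance from mean to peak. With all libraries its amplitude in aged was 0.62 ± 0.10 on the log2 scale (SE, n = 23), a 2.36-fold span from trough to peak, with a peak at ZT 17.4 ± 0.56 h (adjusted p = 0.000352 by limma). At ZT2, Phgdh was at 1.49, 1.999, 2.16 and 1.74 RPKM in young and at 1.12, 0.9803, 1.203 and 1.07 RPKM in aged retinas. All 4 aged values lay below all 4 young ones. At ZT6, Phgdh was at 1.695, 2.88, 2.198 and 1.64 RPKM in young and at 1.79, 1.096, 1.11 and 1.4 RPKM in aged retinas. At ZT10, Phgdh was at 1.32, 2.22, 1.14 and 0.4203 RPKM in young and at 1.26, 1.9, 1.87 and 1.29 RPKM in aged retinas. At both times the aged and young values overlapped. At ZT14, Phgdh was at 2.53, 1.39, 1.53 and 2.24 RPKM in young and at 1.77, 2.02, 3.503 and 2.88 RPKM in aged retinas. At ZT18, Phgdh was at 2.55, 2.07, 1.91 and 2.82 RPKM in young and at 2.96, 3.63 and 4.02 RPKM in aged retinas. At ZT22, Phgdh was at 1.74, 1.88, 1.71 and 1.39 RPKM in young and at 3.61, 3.63, 1.67 and 1.78 RPKM in aged retinas. At ZT18 all 3 aged values were above the 4 young ones, and at ZT22 the aged libraries were split, replicates 1 and 2 being far above the other 2. For the separations at ZT2 and ZT18 the share of all tested genes is not given here. In aged retinas Phgdh ran from 0.980 to 1.90 RPKM in the light with a median of 1.23 and from 1.67 to 4.02 RPKM in the dark with a median of 2.96. In young retinas the amplitude was 0.16 ± 0.11 (adjusted p = 0.61), and 0.06 ± 0.08 without the 2 libraries (adjusted p = 0.81).

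Markers of other tissue and cells also differed between light and dark. One was the pigment epithelium, a layer beside the retina that can adhere to it on dissection. The summed level of its 9 markers in aged libraries ran from 9.82 to 59.4 RPKM in the light (median 20.3) and from 30.3 to 179.8 RPKM in the dark (median 62.6). In young libraries it ran from 7.51 to 38.0 RPKM (median 16.0) and from 18.5 to 95.9 RPKM (median 42.2). Summed blood genes in aged libraries ran from 12.24 to 233 RPKM in the light (median 59.2) and from 74.0 to 823 RPKM in the dark (median 315), whereas the young medians were 59.1 and 55.5 RPKM. Bipolar markers had medians of 91.8 RPKM in the light and 129.9 RPKM in the dark in aged, and of 104 and 136 RPKM in young. With the mean level of the pigment epithelium markers as a covariate, an alternative chosen after seeing the data, the aged amplitude of Phgdh was 0.34 ± 0.10 (adjusted p = 0.0623 by limma) with all libraries and 0.31 ± 0.10 (adjusted p = 0.0844) without the 2. With ganglion cell and Müller glia markers as covariates it was 0.55 ± 0.10 (adjusted p = 0.00222). The part of blood and of bipolar cells in the Phgdh cycle was not tested, nor that of pigment epithelium beyond this covariate. In whole tissue, fewer cells of a type and less RNA per cell cannot be told apart.

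Ddit3 was the only other gene of the 9 called rhythmic with all libraries, again in aged retinas, where 14.4% of all genes were called. Its amplitude was 0.29 ± 0.08 on the log2 scale with a peak at ZT 18.6 ± 1.01 h (adjusted p = 0.042 by limma). Ddit3 ran from 6.53 to 19.7 RPKM in the aged light libraries and from 18.1 to 23.0 RPKM in the dark ones. That call was narrow: it was lost when any 1 of 12 aged libraries was left out (adjusted p from 0.0554 to 0.0752), namely ZT10 replicates 1, 2 and 4, all 4 of ZT14, ZT18 replicates 1 and 2, and ZT22 replicates 1, 3 and 4. It was also lost with no filter on low values (adjusted p = 0.106), with ganglion cell and Müller glia markers as covariates (adjusted p = 0.0704) and with pigment epithelium markers as a covariate (0.36 ± 0.11, adjusted p = 0.0842). Without the 2 libraries Ddit3 cycled at both ages with like timing: the amplitude was 0.16 ± 0.04 with a peak at ZT 18.5 ± 0.86 h in young (adjusted p = 0.00412) and 0.18 ± 0.03 with a peak at ZT 19.0 ± 0.54 h in aged (adjusted p = 0.00021). With the pigment epithelium markers as a covariate the aged amplitude without the 2 libraries was 0.17 ± 0.04 (adjusted p = 0.00865).

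In young retinas none of the 9 genes was called rhythmic with all libraries, while 19.7% of all genes were. Chac1 and Trib3 had unadjusted p under 0.05, and voom called 0. Once the 2 libraries were left out, 6 of 9 were called in young, where 34% of all genes were, and 4 of 9 in aged, where 27.3% were. The young calls had day and night peaks. Chac1, with young medians of 1.15 RPKM in the light and 0.794 RPKM in the dark over all libraries, peaked at ZT 8.65 ± 0.76 h with an amplitude of 0.35 ± 0.07 (adjusted p = 0.00216) and Atf5 at ZT 7.22 ± 1.13 h with 0.19 ± 0.06 (adjusted p = 0.0334). Sesn2 peaked near the change of light at ZT 12.0 ± 1.19 h with 0.12 ± 0.04 (adjusted p = 0.0485). The night genes were Ddit3, Trib3 with a peak at ZT 16.4 ± 1.199 h and 0.18 ± 0.05 (adjusted p = 0.0348), and Psat1 at ZT 17.8 ± 1.17 h with 0.18 ± 0.05 (adjusted p = 0.0328). By voom without the 2 libraries, Chac1, Trib3, Ddit3 and Psat1 were called in young, and Phgdh, Ddit3 and Psat1 in aged.

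In aged retinas without the 2 libraries, Psat1 and Sesn2 joined Phgdh and Ddit3. Psat1 had an amplitude of 0.25 ± 0.07 with a peak at ZT 15.7 ± 1.00 h (adjusted p = 0.0239 by limma), so both serine enzymes peaked in the dark. Sesn2 had 0.16 ± 0.04 with a peak at ZT 12.4 ± 1.202 h (adjusted p = 0.0349). Atf4 was not called at either age: its amplitude was 0.12 ± 0.07 in young and 0.17 ± 0.11 in aged with all libraries (adjusted p = 0.448 and 0.465), and 0.05 ± 0.03 and 0.03 ± 0.04 without the 2 (adjusted p = 0.513 and 0.766). The young value was 0.05 without young ZT10 replicate 4 alone, and the aged value 0.03 without aged ZT6 replicate 3 alone. Asns, whose aged libraries ranged from 6.35 to 18.7 RPKM, had 0.30 ± 0.11 in aged without the 2 libraries (adjusted p = 0.106) and 0.12 ± 0.05 in young (adjusted p = 0.122).

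No gene of the 9 passed the test that its rhythm differed between ages, in a test that called 0.00653% of all genes with all libraries and 0% without the 2. Phgdh alone had an unadjusted p under 0.05, with an amplitude 0.46 higher in aged (adjusted p = 0.606 by limma), and 0.56 higher without the 2 libraries (adjusted p = 0.313). The F test of the interaction of age and time called 0% of all genes in both sets, although 735 and 971 genes had an unadjusted p under 0.05. Phgdh was the one among the 9 genes with such a p (adjusted p = 0.838 and 0.464), and voom called none of the 9 in either test.

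Of 59 other genes of the response, in 7 lists by role, 52 were tested. Aldh1l2, Cbs, Fgf21, Gdf15, Pycr1, Shmt1 and Stc2 fell below the filter, with a highest level of 0.84 RPKM among them (Gdf15). For age, 3 of 52 passed with all libraries. Atf3, a stress-induced factor that pairs with CHOP, was 0.49 ± 0.07 higher in aged on the log2 scale (adjusted p = 4.12e-07 by limma), at 6.14 ± 0.98 RPKM against 4.30 ± 0.97 RPKM in young. Eif2s1, which encodes the phosphorylated subunit of eIF2, was 0.12 ± 0.03 higher (adjusted p = 0.00957). Shmt2, a mitochondrial enzyme that splits serine, was 0.36 ± 0.08 lower (adjusted p = 0.00137). None of the 4 eIF2 kinase genes and none of the 8 amino acid transporters was called, and none of the kinases had an unadjusted p under 0.05 with or without the 2 libraries. The 3 of 52 stand beside 4.24% of all tested genes. Leaving out the 2 libraries, 9 of 52 were called, 4 higher and 5 lower, beside 16.5% of all genes, so neither count was far from the share of all genes. The second set adds Nupr1 (0.50 ± 0.12 higher), Eif2s3x (0.06 ± 0.02 higher), Ppp1r15b (0.12 ± 0.03 lower), Aldh18a1 (0.11 ± 0.04 lower), Vldlr (0.10 ± 0.03 lower) and Atf6 (0.09 ± 0.02 lower).

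With all libraries 8 of the 52 were rhythmic in young, where 19.7% of all tested genes were, and 16 in aged, where 14.4% were. Without the 2 libraries 21 and 22 were, beside 34% and 27.3% of all genes. Of 12 tested stress outputs and feedback genes, 2 were rhythmic in young (Ddit4 and Trib1) and 3 in aged (Eif4ebp1 in addition), and 3 and 4 without the 2 libraries, with Herpud1 added at both ages. Ppp1r15a, which encodes GADD34 and directs the removal of the phosphate from eIF2, had an amplitude of 0.33 ± 0.05 with a peak at ZT 16.4 h in young (adjusted p = 0.000105 by limma) and 0.43 ± 0.08 with a peak at ZT 17.4 h in aged (adjusted p = 0.00198). Ddit4, an mTORC1 inhibitor, had 0.33 ± 0.05 in young (adjusted p = 8.91e-05) and 0.46 ± 0.10 in aged (adjusted p = 0.00895). The factor Xbp1 had 0.49 ± 0.08 with a peak at ZT 18.9 h in young (adjusted p = 0.000644) and 0.57 ± 0.06 with a peak at ZT 18.3 h in aged (adjusted p = 1.58e-06). In the set without the 2 libraries, the young and aged amplitudes were 0.34 and 0.35 for Ppp1r15a, 0.34 and 0.32 for Ddit4, and 0.44 and 0.58 for Xbp1, all called. These peaks fall within about the same hours as those of Ddit3, while the transporters had both day and night peaks. Slc7a1, which imports arginine, peaked at ZT 6.78 h in aged (0.39 ± 0.07, adjusted p = 0.00278) and Slc7a5 at ZT 9.42 h (0.37 ± 0.08, adjusted p = 0.00888). Slc3a2, the shared heavy chain of Slc7a5 and Slc7a11, peaked at ZT 17.4 h (0.23 ± 0.07, adjusted p = 0.0478). Without the 2 libraries the aged amplitudes were 0.42 for Slc7a1, 0.40 for Slc7a5 and 0.15 for Slc3a2, all called. Of the rhythmic pathway genes 7 of 8 in young and 12 of 16 in aged peaked in the dark, beside 23.7% and 42.7% of all rhythmic genes. In the 45 other libraries these were 13 of 21 and 13 of 22, beside 23.4% and 35.7%.

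The genes were then compared across libraries within groups, by the correlation of log2(RPKM + 0.5) after subtracting the mean of each age and time, with two-sided permutation tests of 100000 resamples within groups. All values of a library share its total. With all 47 libraries Atf4 went with Ddit3 (r = 0.914, rho = 0.674, adjusted permutation p = 0.00189 and 0.00174 over 9 relations) and with Trib3 (r = 0.828, rho = 0.657, adjusted permutation p = 0.00189 and 0.00174). In the 45 other libraries r was 0.393 for Ddit3 (rho = 0.395, adjusted permutation p = 0.0383 and 0.0329) and 0.470 for Trib3 (rho = 0.487, adjusted permutation p = 0.0383 and 0.0316). Most of the pooled relation thus rests on the 2 libraries that stand apart. Leaving out the 2 libraries farthest from the median of Atf4 as well gave r = 0.392 and 0.492. Within young and aged libraries r was 0.399 and 0.386 for Ddit3 and 0.495 and 0.439 for Trib3. With all 47 libraries Atf4 also went against Psat1 (r = -0.543, rho = -0.503, adjusted permutation p = 0.00471 and 0.00729) and Slc7a11 (r = -0.541, rho = -0.589, adjusted permutation p = 0.0162 and 0.00174), and in the 45 libraries these r were -0.327 and -0.278 (adjusted permutation p = 0.107 and 0.239). Atf4 went against Asns (r = -0.392, rho = -0.406, adjusted permutation p = 0.0383 and 0.0329) and Atf5 (r = -0.456, rho = -0.426, adjusted permutation p = 0.0383 and 0.0329) in the 45 libraries, with r = -0.314 and -0.379 when the 2 farthest were also left out. With all 47 libraries these r were -0.394 (adjusted permutation p = 0.191) and -0.0709 (adjusted permutation p = 0.775), and that of Atf5 was -0.782 in young and 0.423 in aged libraries.

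Over all 45 pairs of the 10 genes, 16 had an adjusted permutation p under 0.05 with all libraries and 3 without the 2, and the 3 joined Asns, Chac1 and Atf5. The share over pairs of other genes is not given here. Asns and Chac1 had r = 0.693 and rho = 0.686 (adjusted permutation p = 0.00833 and 0.0027), with 0.715 after leaving out the 2 farthest libraries. Asns and Atf5 had r = 0.637 and rho = 0.584 (adjusted permutation p = 0.0054 and 0.0135), with 0.6095 after it. For Atf5 and Chac1, r was 0.571 and rho 0.463 (adjusted permutation p = 0.0393 and 0.0747), with 0.4806 after leaving out the 2 farthest, 0.217 in young and 0.761 in aged libraries. The serine enzymes Psat1 and Phgdh had r = 0.614 with all libraries and 0.445 without the 2 (rho = 0.469 and 0.480, adjusted permutation p = 0.00895 and 0.0805 for r).

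**Figure D4:**
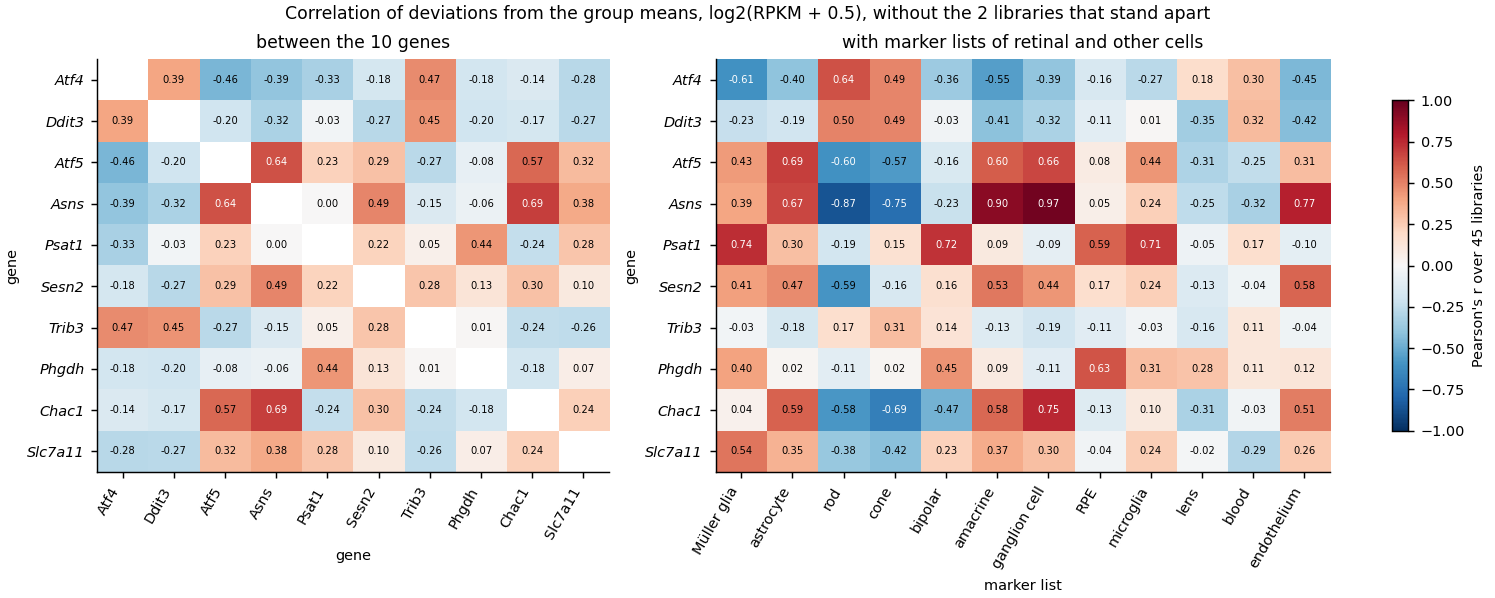
Pearson's r (color and number) between the 10 genes (left) and between each gene and the mean level of 12 marker lists (right), over 45 libraries after subtracting group means. Asns, Atf5 and Chac1 form a positive block and go with ganglion cell markers (0.97, 0.66 and 0.75), Psat1 goes with Müller glia (0.74) and Phgdh with pigment epithelium (0.63).

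Across libraries the genes were correlated with different cell type markers. Each gene was set against 12 lists of cell type markers, 120 relations in all. Of these, 41 had an adjusted permutation p under 0.05 without the 2 libraries and 40 with them. The share over other genes set against the same lists is not given here. The counts of marker relations here and in the next paragraph thus do not show a link particular to these genes. Asns followed ganglion cell markers closely, with r = 0.966 and rho = 0.938 without the 2 libraries (adjusted permutation p = 0.0002 for both) and r = 0.976 with them. The value of r was 0.957 without the 2 farthest libraries, 0.9365 in young and 0.979 in aged. Before adjustment, 1.00e-05 is the smallest p that these permutations can give. Asns also went with amacrine markers (r = 0.902, rho = 0.859) and against rod markers (r = -0.867, rho = -0.811, adjusted permutation p = 0.0002 for all). Chac1 went with ganglion cell markers (r = 0.754, rho = 0.699, adjusted permutation p = 0.000533 and 0.0006), as did Atf5 (r = 0.665, rho = 0.616, adjusted permutation p = 0.000857 and 0.00291). Ganglion cells were not the only such list for these genes. Without the 2 libraries, Chac1 and Atf5 each had 7 relations under 0.05 among their 12, and Asns had 6. The summed ganglion cell markers ran from 194 to 745 RPKM over the libraries other than the 2. The part of the markers in the spread of these genes was not tested.

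Psat1 followed Müller glia, which are known to make serine for the retina (r = 0.737, rho = 0.717, adjusted permutation p = 0.000343 and 0.0003), and bipolar markers (r = 0.723, rho = 0.798, adjusted permutation p = 0.0002 for both). Phgdh followed pigment epithelium markers (r = 0.627, rho = 0.634, adjusted permutation p = 0.00261 and 0.004), with r of 0.421 in young and 0.755 in aged libraries. Pigment epithelium was not its only such list: Phgdh had 2 relations under 0.05 among its 12 without the 2 libraries and 4 with all libraries. The r of Phgdh with blood genes was 0.114 (rho = 0.174, adjusted permutation p = 0.679 and 0.485). Atf4 went with rod markers (r = 0.637, rho = 0.624, adjusted permutation p = 0.0006 and 0.00231) and against Müller glia markers (r = -0.606, rho = -0.600, adjusted permutation p = 0.000857 and 0.0018). With all 47 libraries the relation of Atf4 to rods was weaker in r (0.375) than in rho (0.641). Without the 2 libraries, Atf4 had 7 relations under 0.05 among its 12 and Psat1 had 4. Ddit3 went with rod markers as well (r = 0.497, rho = 0.453, adjusted permutation p = 0.0143 and 0.0269), and Trib3 had no relation under 0.05 among its 12. With ganglion cell and Müller glia markers as covariates and without the 2 libraries, the age differences were 0.09 ± 0.02 for Atf4 (adjusted p = 0.00214) and 0.12 ± 0.03 for Ddit3 (adjusted p = 0.000696 by limma).

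**Figure D5:**
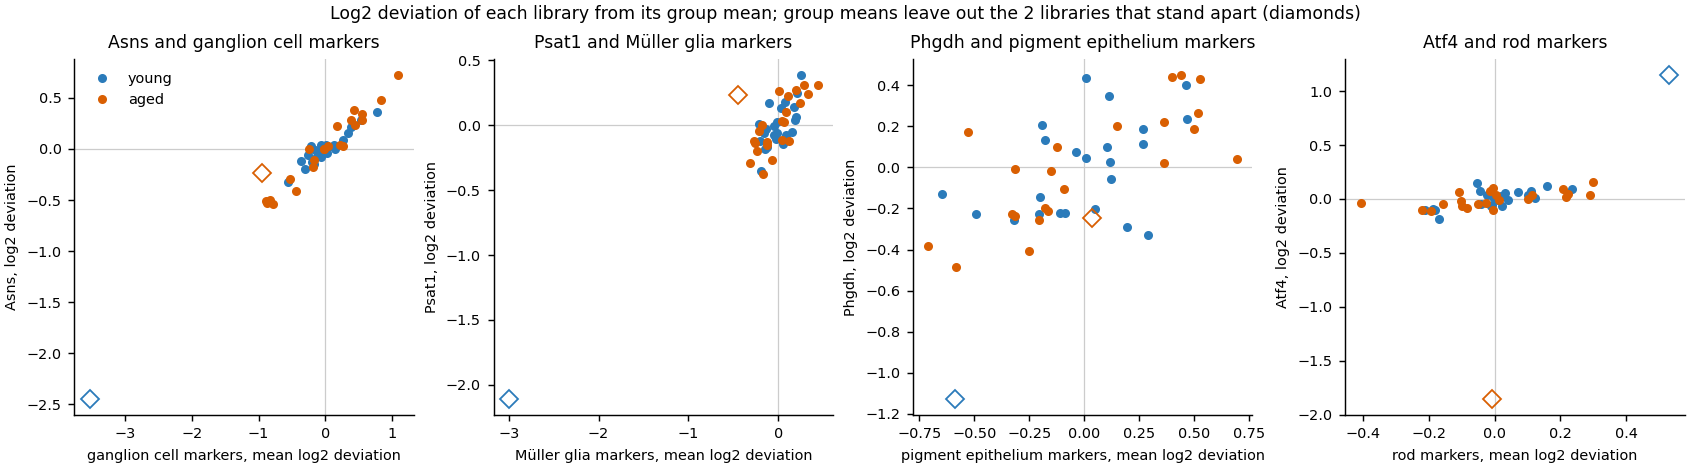
Deviation of Asns, Psat1, Phgdh and Atf4 from its group mean (log2, y axes) against that of a marker list (mean log2, x axes), 1 point per library, group means taken without the 2 libraries shown as diamonds. Asns lies along a line with ganglion cell markers (r = 0.966 over 45 libraries), including the diamonds at its lower end, whereas for Atf4 the diamonds lie far above and below the other libraries.

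The tested genes whose 12 group means were most like those of Atf4 were Cox8a (r = 0.977), Atp5g1 (0.972), Elof1 (0.965), Myl6 (0.963) and Polr2e (0.963), as a description over 12 means that include the 2 libraries. Without them they were Clp1 (0.915), Cox5a (0.910), Elof1 (0.910), Cox8a (0.902) and Atp5g1 (0.898). The genes of the response were less like it: the highest were Ddit3 at 0.770 with all libraries and Atf5 at 0.583 without the 2.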

How the data were processed

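The authors deposited RPKM values of 47 libraries used here, 1 column per library, and left aside here is 1 more column, which fits none of the labelled samples. Per the submitters' processing notes, HISAT2 2.2.1, Subread 2.0.6 and the build GRCm39 were used. Annotation release, filters and strand setting: not given in the sources used here. Per the labels' protocols, polyadenylated RNA was selected and primed with random hexamers. Age and time come from the labels, which name 4 mice per age and time. Symbols and exon lengths came from GENCODE M21 (51884 of 57180 identifiers matched) and promoters from RefSeq on GRCm38.p6, an earlier build than the files use, so no other coordinates are given.

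Low values are whole multiples of 1 read, so reads were recovered to within 0.01 of a whole number for 37323 of 37323 genes above 0; for 4544 of these genes the smallest length giving whole reads was taken, which builds this in. Replicates differed by more than sampling noise (mean chi-square per gene 7.62 to 768 over 69 pairs).

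Tests covered the 15321 genes that reached 0.5 RPKM in 12 or more libraries. They used log2(RPKM + 0.5) and limma 3.58.1 (R 4.3.3), with a trended eBayes prior and Benjamini-Hochberg adjusted p over the full set. On this scale a low gene shows less than its true fold. The age effect was estimated with time as a factor, ages at each time and the interaction from 12 group means, rhythms by jointly testing cosine and sine of a 24 h period, with delta-method errors, and the difference of rhythms by their interaction with age. The scripts were tested on simulated data. Named were all 10 genes, up to 4 genes per pathway list and test by adjusted p, those called for age without the 2 libraries (added after seeing values), and the 5 most like Atf4.

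Atf5 shares 82 exon bases with Nup62 on the opposite strand and Ddit3 68 with Mars, and without a known strand setting such reads cannot be told apart. A further identifier named Ddit3 was at 0 throughout. Alternatives changed the pseudocount, filter, scaling, library weights, replicate block, form of the time effect and libraries, and used voom on the recovered reads. Marker covariates, marker correlations and alternatives that combine another setting with leaving out the 2 libraries were chosen after seeing the data. The 10 genes, lists and tests were chosen with earlier results of these data known. The labels do not say that each library is a separate animal, so p-values measure the spread between libraries. A check showed no clear pairing of the libraries by replicate number, which does not establish that there was none.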

Additional observations from a re-analysis of the deposited data

Results flagged for a closer look

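In groups of 4 libraries, 12 of 110 combinations of gene and group held a library whose gap to the nearest other exceeded Dixon's 95% limit, where chance gives about 1 in 20 groups. Young ZT10 replicate 4 accounts for 4 of them: Atf4 at 166, Ddit3 at 43.9 and Trib3 at 7.07 RPKM were the highest of their group and Asns at 1.8 RPKM the lowest. Aged ZT6 replicate 3 accounts for 2, with Atf4 at 25.0 and Ddit3 at 6.53 RPKM as the lowest. The other 6 lie in young groups. Atf4 was low in young ZT22 replicate 1 at 66.1 RPKM, and Sesn2 was high in the same library at 6.13 RPKM and in young ZT18 replicate 1 at 6.71 RPKM. Chac1 was high in young ZT2 replicate 4 at 1.22 RPKM. Slc7a11 was high in young ZT2 replicate 1 at 0.171 RPKM and in young ZT22 replicate 3 at 0.627 RPKM.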

How the results depend on the processing

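The rhythm counts of the 9 genes and of the 52 pathway genes moved when young ZT10 replicate 4 or aged ZT6 replicate 3 was left out. The age and single-time counts of the 9 genes stayed at 0 with any 1 library left out and moved when both were. With array weights single-time calls, interactions, aged rhythms and pathway counts moved further. Over settings that left out 1 library or both of these, genes of the 9 differing with age numbered 0 to 2, single-time calls 0 to 1, interaction and differing rhythms 0 to 0, rhythmic genes 0 to 6 in young (6 without young ZT10 replicate 4) and 1 to 4 in aged (4 without aged ZT6 replicate 3). Pathway genes numbered 3 to 9 for age, 8 to 21 for young and 11 to 22 for aged rhythms. Array weights gave 1 gene for age, 6 single-time calls, 2 interactions, 6 and 6 rhythmic genes, and 11, 29 and 26 pathway genes. Quantile normalization gave 1 rhythmic gene in young. With no filter 1 gene and 10 pathway genes were rhythmic in aged, and with time as a factor 1 and 8. Ganglion cell and Müller glia covariates gave 1 single-time call, 4 rhythmic genes in young, and 9 and 26 pathway genes for age and young rhythm; the pigment epithelium covariate gave 0 rhythmic genes and 9 pathway genes in aged. The cause of these shifts was not tested. The share of all genes called under array weights and the other changed settings is not given here. Leaving out the 2 libraries raised the age calls over all genes too, from 4.24% to 16.5%. The counts here and in the next paragraph thus do not show a gain particular to these genes.

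Leaving out 1 library at a time, the Atf4 age difference ran from -0.04594 to 0.04989 on the log2 scale, with no call. Without both libraries, the Atf4 age difference turned from -0.03 to 0.1004, and to 0.0871 with ganglion cell and Müller glia covariates, 0.1105 with the pigment epithelium covariate, 0.1197 by voom, 0.1226 with median-ratio scaling and 0.1022 with the replicate block. In the same order of these 5 settings, genes differing with age were 3, 2, 2, 2 and 2, rhythmic genes in young 4, 4, 4, 5 and 5, and pathway genes 14, 8, 8, 9 and 10 for age and 26, 20, 22, 22 and 22 for young rhythm. Single-time calls were 1, 1, 0, 0 and 1, and rhythmic genes in aged were 1 with the pigment epithelium covariate and 4 with the block. With all libraries the replicate block gave 0 genes for age, 0 rhythmic in young and 3 in aged, with Sesn2 added. Same-numbered libraries of both ages had a median correlation of 0.01 over 23 pairs, 10 of them over 0.1, and 17 of 47 libraries went best with their own number.

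Of the correlations with Atf4, Asns was -0.639 with median-ratio scaling and Slc7a11 -0.411 with quantile normalization. Among all libraries, the 2 farthest from the Atf4 median are the 2 that stand apart. Without them, but with group means still taken over all libraries, Atf5 was -0.202, Asns -0.376 and Slc7a11 -0.368. With group means also taken without them the values were -0.456, -0.392 and -0.278, with Chac1 at -0.143, Sesn2 at -0.178 and Psat1 at -0.327. Of 5814 values of single genes under alternatives, 5451 kept direction, call and size, 258 moved, 82 gained and 17 lost a call, and 6 reversed. Low counts limit Chac1 (8 to 192 reads) and Slc7a11 most.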
